A study of Apis mellifera with 4 samples.

Results

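The spliceosome genes of the honeybee (Apis mellifera) were examined in whole female larvae at 60 hours, in larvae raised as queens and in larvae raised as workers. The genes were chosen by their symbols in the deposited gene table. No measured value entered the rule, but earlier results of these data were known when it was made. No test of the genes as a set was therefore run. Symbols were taken that begin with Prp and a number, SF3A, SF3B, U2af, snRNP, Lsm and a number or thoc, together with snf and the symbols of the Sm proteins. This gave 17 genes of the 11156 in the table, and all 17 had enough reads to be tested. No protein particular to the U5 particle was among them, so that U5 is not described here.

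The spliceosome removes introns from pre-mRNA. It is built from small nuclear ribonucleoproteins (snRNPs), each a short RNA with a ring of Sm or Sm-like (LSm) proteins and further proteins of its own. The U1 snRNP recognises the start of an intron, U2AF and the U2 snRNP recognise its end and the branch point, and the tri-snRNP of U4, U6 and U5 then joins. The Prp19 complex helps to activate the assembled machine. The THO complex binds the transcript as it is made and spliced and prepares it for export, and it is not a part of the spliceosome itself.

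Queens and workers were each represented by 2 samples, and every sample was a pool of whole larvae. No agent was added for either caste, but the castes were fed differently. Queen larvae had been grafted after hatching into queen cells in a hive without a queen, and worker larvae stayed in the cells they hatched in and were kept in a different hive. According to the paper, royal jelly fed in queen cells triggers queen development, and the diet of workers differs. Caste, diet, grafting and hive therefore cannot be told apart in these data. The labels do not say that the samples of a caste came from separate colonies, so that p-values measure the spread between these pools. In pools of whole larvae, fewer cells that express a gene and less RNA per cell cannot be told apart.

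Between 4949093 and 5476218 reads fell on exons in each sample. The 10 most abundant genes took 6.88% and 7.02% of these in queens and 24.9% and 23.4% in workers. The fat body markers listed, 4 hexamerins, were all higher in workers, and their summed RPKM (exon reads relative to exon length and to the reads on all genes) was 8696 and 9608 in queens and 80280 and 72756 in workers. The muscle markers tested, Mhc1 and TpnCI, were also higher in workers, at a summed level for the 3 listed muscle genes of 121 and 111 RPKM in queens and 269 and 287 in workers. The neural markers listed, Syt1 and nAChRa1, were low in every sample, at a summed 2.69 and 2.79 RPKM in queens and 3.67 and 3.64 in workers, and of the 3 cuticle markers Apd-2 was higher in workers and Apd-1 and Apd-3 were at 0 reads in every sample. The part of these tissue and library differences in the results below was not tested. Reads were scaled by edgeR's TMM factors (1.21, 1.20, 0.828 and 0.831), which set the middle of all genes near equality. Scaling by library totals instead moved the median fold change, on the log2 scale over the 7833 tested genes, from 0.01 to 0.55, so that the log2 values below would each be higher by nearly that shift with library totals.

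With TMM factors, 4 of the 17 genes were higher in queens and none was higher in workers (edgeR quasi-likelihood test, Benjamini-Hochberg adjusted p below 0.05). Over all 7833 tested genes, 6.33% were higher in queens and 12% higher in workers. The 4 genes were Prp19 of the Prp19 complex, thoc6 of the THO complex, U2af50 of U2AF and SF3B3 of the U2 snRNP. At an unadjusted p below 0.05 the counts were 6 and 1, beside 14.9% and 19.2% of all tested genes. The Wald test of DESeq2 called 3 and 0, beside 6.52% and 11.2% of the genes it tested. The fitted fold change, queens over workers, was above 0 on the log2 scale for 16 of the 17 genes, beside 50.7% of all tested genes, and its median was 0.30 beside 0.01 over all tested genes. The calls of thoc6, U2af50 and SF3B3 did not hold when any 1 of the 4 samples was left out, whereas Prp19 kept its call without either queen sample (adjusted p = 0.014 and 0.0033) and lost it without either worker sample (adjusted p = 0.060 and 0.064).

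The 17 genes together held 11255 and 10595 exon reads in queens and 6832 and 6607 in workers. That was 0.216% and 0.214% of all exon reads in queens and 0.125% and 0.126% in workers. In unscaled RPKM, both queen samples were above both worker samples for all 17 genes, which was so for 68.1% of all tested genes. In TMM-scaled CPM (exon reads relative to the scaled library size), both queen samples were above both worker samples for 10 genes, both worker samples were above both queen samples for 1, and the castes overlapped for 6. Over all tested genes the first pattern was found in 31.7% and the second in 32.1%. The median difference between the samples of a caste was 0.07 on the log2 scale in queens and 0.17 in workers over these genes, beside 0.15 and 0.21 over all tested genes.

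**Figure D1:**
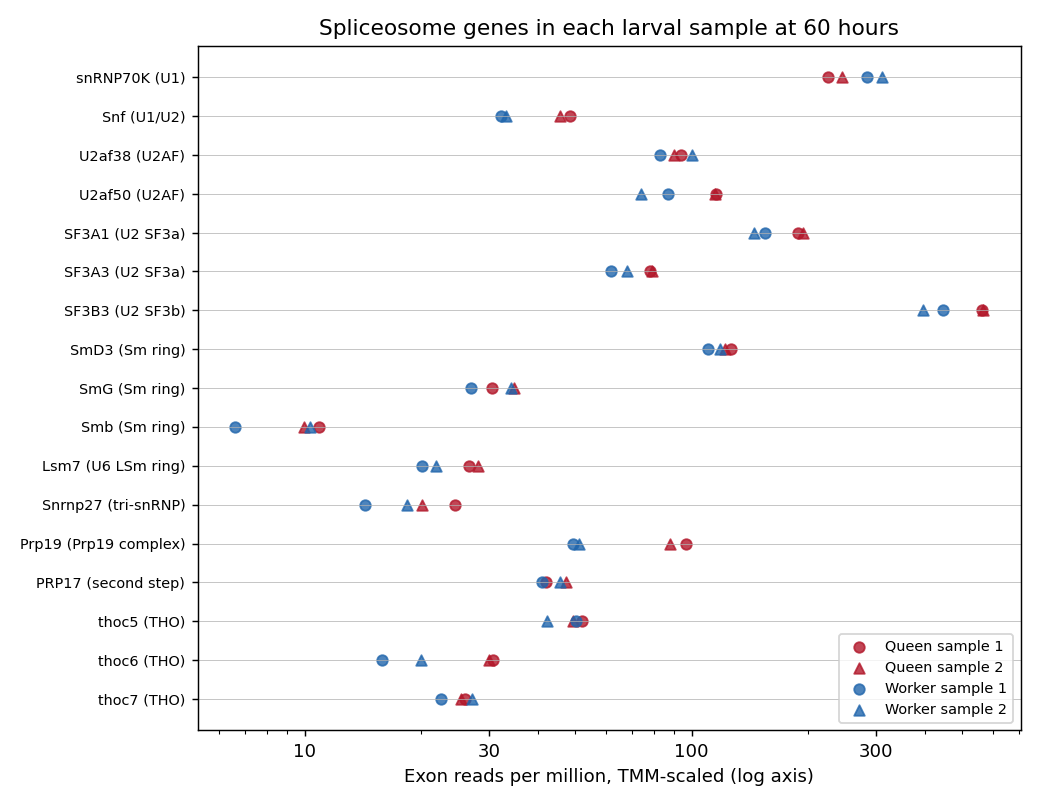
TMM-scaled CPM of exon reads (log axis) of the 17 genes, ordered by complex, with 1 point for each of the 4 samples. The queen points lie to the right of both worker points for 10 genes, snRNP70K lies the other way, and Prp19 shows a wide gap between the castes.

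Prp19, the ubiquitin ligase that gives the Prp19 complex its name, showed the largest fold change of the 17 genes. It lies at 1907764 to 1911621 on scaffold NW_003377988 of Amel_4.5 and has 8 exons. It had 611 and 521 exon reads in queens against 224 and 223 in workers. Both queen samples were far above both worker samples, and the worker samples were nearly equal. Its level was 44.5 ± 3.47 RPKM in queens and 17.02 ± 0.165 in workers (SD, n = 2 each). After TMM scaling it was 1.83-fold higher in queens (log2 fold change 0.87, SE 0.12, edgeR adjusted p = 0.0085). Almost all of its exon reads, 99.9%, matched a single place in the genome.

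PRP17, needed in yeast for the second step of splicing, did not pass the test. Its exon reads were 266 and 281 in queens and 186 and 199 in workers, and after scaling the castes overlapped (log2 fold change 0.04, SE 0.15, edgeR adjusted p = 0.868). The ratio of Prp19 to PRP17 in RPKM does not depend on how the libraries are scaled. It was 3.33 and 2.69 in queens and 1.75 and 1.63 in workers, without overlap. The ratios here and below were not tested, and they follow from the levels of the single genes. How often other gene pairs separate the castes in this way was not computed.

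At the U1 snRNP, snRNP70K, the protein that binds U1 RNA, was the only member with a fitted value below 0. It lies at 1464109 to 1470995 on scaffold NW_003377923 and overlaps no other gene of the table. Its exon reads were 1423 and 1446 in queens and 1286 and 1351 in workers, the narrowest relative gap of the 17 genes. Its TMM-scaled CPM was 225 and 244 in queens and 284 and 310 in workers, so that both worker samples were above both queen samples. The difference did not pass the test (log2 fold change -0.34, SE 0.11, edgeR adjusted p = 0.085), and with library totals it had the opposite sign (0.20, adjusted p = 0.166).

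Snf is the fly name of a protein that serves in both the U1 and the U2 snRNP. It had 308 and 271 exon reads in queens and 146 and 144 in workers. The castes did not overlap after scaling, with a CPM of 48.6 and 45.7 in queens and 32.2 and 33.1 in workers. The gene fell just outside the threshold (log2 fold change 0.53, SE 0.13, edgeR adjusted p = 0.0501) and passed it in 9 of 17 alternative settings. Among these were library totals and limma on log2 RPKM plus 1 or 0.1, which called 47.3%, 42.1% and 37.8% of all tested genes higher in queens. It did not pass with DESeq2's Wald test (adjusted p = 0.092) or with the replicate number as a block in edgeR (adjusted p = 0.081). The ratio of Snf to snRNP70K in RPKM was 0.513 and 0.444 in queens and 0.269 and 0.253 in workers, without overlap. The difference in this ratio was not tested. Its denominator, snRNP70K, was the only member with a fitted value below 0. Snrpc, a U1 protein outside the 17 genes, had a log2 fold change near that of Snf (0.57, SE 0.15, edgeR adjusted p = 0.058). No ratio of Snf to Snrpc was computed.

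U2AF binds the end of the intron as a pair of proteins. The large subunit U2af50 reads the polypyrimidine tract, and the small subunit U2af38 reads the AG of the splice site. U2af50 lies at 565206 to 572434 on scaffold NW_003377857 and had 734 and 680 exon reads in queens and 394 and 323 in workers. Both queen samples were close to each other and above both worker samples, which differed more. Its level was 61.1 ± 1.18 RPKM in queens and 29.9 ± 3.81 in workers (SD, n = 2 each), and it was 1.43-fold higher in queens after scaling (log2 fold change 0.52, SE 0.12, edgeR adjusted p = 0.043). Without 1 of the samples its adjusted p was 0.063 to 0.117. Its span overlaps those of LOC724768 and LOC100577060, and 74.1% of its exon reads matched a single place. LOC100577060 was itself higher in queens (log2 fold change 0.56, edgeR adjusted p = 0.044), and its part in the value of U2af50 was not tested beyond the reads with a single match, on which U2af50 kept its call (0.52, adjusted p = 0.049). On all gene reads, introns included, its call was lost (0.42, adjusted p = 0.051).

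U2af38 had 596 and 535 exon reads in queens and 376 and 436 in workers. After scaling, its castes overlapped (log2 fold change 0.01, SE 0.13, edgeR adjusted p = 0.96). The ratio of U2af50 to U2af38 in RPKM was 0.799 and 0.825 in queens and 0.680 and 0.481 in workers. Both queen ratios were above both worker ratios, and the worker samples stood far apart.

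In the U2 snRNP, SF3A1 and SF3A3 belong to the SF3a part and SF3B3 to the SF3b part, which together hold U2 at the branch point. SF3B3 lies at 4450827 to 4459273 on scaffold NW_003378088 and was the most highly read gene of the 17. It had 3557 and 3356 exon reads in queens and 2025 and 1729 in workers. Its level was 133 ± 0.851 RPKM in queens and 69.8 ± 6.89 in workers (SD, n = 2 each). It was 1.34-fold higher in queens after scaling (log2 fold change 0.42, SE 0.10, edgeR adjusted p = 0.045), and without 1 of the samples its adjusted p was 0.064 to 0.139.

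SF3A1 had 1190 and 1146 exon reads in queens and 703 and 632 in workers, and SF3A3 had 495 and 468 against 281 and 296. For both genes the queen samples were above the worker samples after scaling, and neither passed the test. The log2 fold change of SF3A1 was 0.34 (SE 0.10, edgeR adjusted p = 0.076), and that of SF3A3 was 0.27 (SE 0.11, adjusted p = 0.158). The ratio of SF3A1 to SF3A3 in RPKM was 1.74 and 1.77 in queens and 1.81 and 1.54 in workers, so that the castes overlapped. SF3B3 to SF3A1 gave 1.77 and 1.74 in queens and 1.71 and 1.62 in workers, a small gap without overlap.

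The Sm proteins form the ring on the U1, U2, U4 and U5 RNAs. SmD3 had 803 and 721 exon reads in queens and 501 and 516 in workers, with a log2 fold change of 0.12 (SE 0.11, edgeR adjusted p = 0.489). SmG had 193 and 206 against 122 and 149, with a log2 fold change of 0.09 (SE 0.18, adjusted p = 0.763). For neither gene was a difference beyond the spread between samples found, although the queen samples of SmD3 stood narrowly above its worker samples after scaling. Smb, listed under the symbol of the Sm protein B, had 69 and 59 reads against 30 and 45, with a log2 fold change of 0.30 (SE 0.29, adjusted p = 0.518). Its span lies wholly within those of other genes, and 53.7% of its exon reads matched a single place. Its value rested on single samples, at 0.01 without worker sample 1 and 0.65 without worker sample 2, and was 0.55 on single-match reads, and none of these passed the test. In RPKM, SmD3 was 2.19 and 1.84 times SmG in queens and 2.16 and 1.82 times in workers. The castes overlapped in this ratio, and also in that of Smb to SmG, at 0.233 and 0.187 in queens and 0.160 and 0.197 in workers.

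Lsm7 belongs to the LSm ring that sits on U6 RNA. It had 168 and 166 exon reads in queens and 91 and 95 in workers, with a log2 fold change of 0.38 (SE 0.16, edgeR adjusted p = 0.159). Its span is wholly covered by LOC409764 and LOC725391, and only 29.8% of its exon reads matched a single place, the lowest share of the 17 genes. Snrnp27, a protein of the tri-snRNP, had 155 and 119 reads in queens and 65 and 80 in workers, with a log2 fold change of 0.45 (SE 0.22, adjusted p = 0.212) and 47.3% of its exon reads matching a single place. Both genes had their queen samples above their worker samples after scaling, and neither passed the test.

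Of the THO complex, which loads export factors on mRNA, 3 subunits were matched, and 1 of them passed the test. The subunit thoc6 lies at 1826937 to 1829754 on scaffold NW_003377988, and its span overlaps those of LOC408752 and LOC410957. Of its exon reads, 83.4% matched a single place. It had 194 and 177 exon reads in queens and 72 and 87 in workers. Both queen samples were well above both worker samples. Its level was 21.99 ± 0.662 RPKM in queens and 9.12 ± 1.33 in workers (SD, n = 2 each), and it was 1.69-fold higher in queens after scaling (log2 fold change 0.75, SE 0.18, edgeR adjusted p = 0.045). Without 1 of the samples its adjusted p was 0.077 to 0.116, and with the Wald test of DESeq2 it was 0.062.

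For thoc5, the exon reads were 329 and 293 in queens and 228 and 184 in workers, and for thoc7 they were 164 and 150 against 102 and 118. Both genes overlapped between the castes after scaling, with log2 fold changes of 0.13 (SE 0.15, edgeR adjusted p = 0.571) and 0.05 (SE 0.17, adjusted p = 0.881). In RPKM, thoc6 was 0.847 and 0.868 times thoc5 in queens and 0.454 and 0.679 times in workers, without overlap. The ratio of thoc7 to thoc5 overlapped, at 0.814 and 0.836 in queens and 0.731 and 1.05 in workers.

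**Figure D2:**
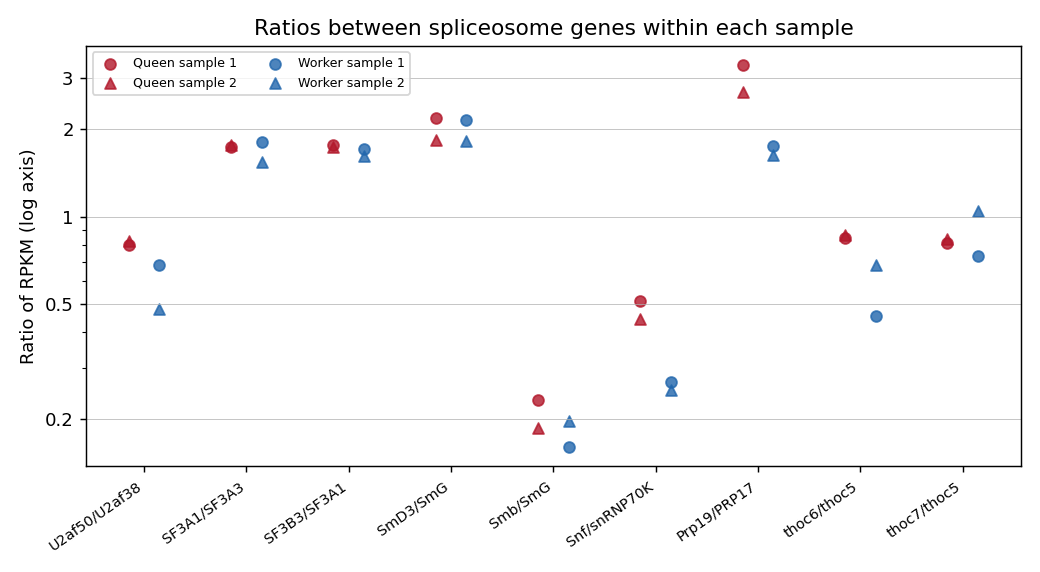
Ratio of RPKM between genes (log axis), with 1 point per sample and queens and workers side by side. The genes of each pair belong to one complex or snRNP, except Prp19 (Prp19 complex) and PRP17 (second step). Prp19/PRP17, Snf/snRNP70K, U2af50/U2af38, SF3B3/SF3A1 and thoc6/thoc5 are higher in both queen samples than in both worker samples, and the other 4 ratios overlap. Ratios were not computed for other gene pairs, so no background share is given. Among single genes, 31.7% of all tested genes had both queen samples above both worker samples in TMM-scaled CPM, and 32.1% the reverse.

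**Figure D3:**
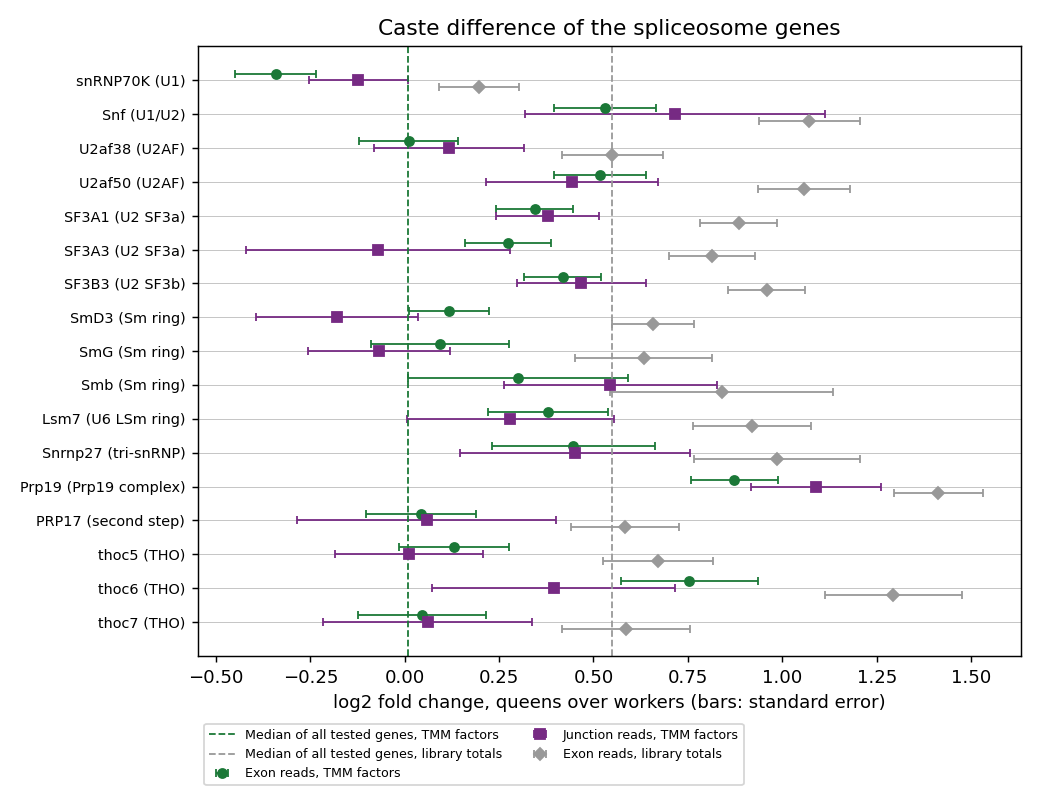
log2 fold change of each gene, queens over workers, with its standard error, from exon reads with TMM factors, from exon-exon junction reads with TMM factors and from exon reads with library totals, and dashed lines at the median of all tested genes (0.01 and 0.55). Prp19 lies farthest to the right in all 3 series, and snRNP70K lies to the left of the matching median in both exon series.

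With library totals, 15 of the 17 genes were higher in queens by edgeR's test, as were 47.3% of all tested genes, and 6.2% of all tested genes were higher in workers. The exceptions were snRNP70K and Smb, the latter at a log2 fold change of 0.84 (adjusted p = 0.059). The median of the 17 genes was then 0.84 beside 0.55 over all tested genes. The order of the 17 genes by fold change was the same under both scalings, since the scaling shifts all of them together.

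Levels per length spanned a 10.8-fold range in queens and a 12.1-fold range in workers. In queens the order of mean RPKM began with SF3B3 (133), SmD3 (119) and snRNP70K (95.4), followed by SF3A1 (76.0) and U2af38 (75.2), which were within the spread of their samples. In workers it began with snRNP70K (84.6), SmD3 (76.5) and SF3B3 (69.8), and the samples of SmD3 and SF3B3 touched, with 74.7 in worker sample 1 for both. The lowest levels were those of PRP17, Snrnp27 and Smb in queens (14.9, 13.9 and 12.4 RPKM) and of thoc6, Snrnp27 and Smb in workers (9.12, 7.13 and 7.01 RPKM). Neighbours in this low range were within or near the spread of their samples. Prp19 was in place 9 in queens and 11 in workers.

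Most of these genes lie close to others in the genome, and the deposited counts include reads that match several places or fall where genes overlap. The spans of 15 of the 17 genes overlap another gene of the table, all but snRNP70K and SmG. Over the 17 genes, 91.7% of exon reads matched a single place. The share was at least 95% for 6 genes and under 80% for Lsm7, Snrnp27, Smb, thoc7 and U2af50. It was lower where more of the span was overlapped (Spearman's rho -0.81 across the 17 genes, which are not replicates). Of the reads that cross from one exon to the next, 99.6% matched a single place. The strand of the libraries is not given in the sources used here, so that reads of overlapping genes cannot be told apart by strand.

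The test was therefore repeated on exon-exon junction reads alone, a choice made after the data were seen. Of the 17 genes only Prp19 was called, and over the 5797 genes tested 3.17% were higher in queens and 8.69% in workers. Prp19 had 145 and 138 junction reads in queens and 50 and 46 in workers (log2 fold change 1.09, SE 0.17, edgeR adjusted p = 0.0071). U2af50 and SF3B3 had values near those from all exon reads, at 0.44 (SE 0.23, adjusted p = 0.261) and 0.47 (SE 0.17, adjusted p = 0.130). The value of thoc6 was 0.39 (SE 0.32, adjusted p = 0.484), from 35 and 29 junction reads in queens and 14 and 21 in workers. Why these 3 calls were lost on junction reads was not tested.

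Reads outside exons were counted as the difference between all reads of a gene and its exon reads. Over the 17 genes they made up 6.43% and 7.36% of gene reads in queens and 10.03% and 12.0% in workers. All other genes had 15.7% and 16.1% in queens and 13.3% and 15.4% in workers. Without the 10 most abundant genes, the share over the whole table was 16.7% and 17.0% in queens and 16.7% and 18.9% in workers, so that worker sample 2 was highest there too. Most of these reads fell in a pair of genes. The gene snRNP70K had 465 and 550 such reads in queens and 570 and 665 in workers, 60.1% to 74.8% of all intronic reads of the 17 genes. Without snRNP70K and U2af50 the share was 1.87% in each queen sample and 1.77% and 2.37% in workers, and 13 genes were at or under 5% in every sample.

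Within snRNP70K, 24.6% and 27.6% of the reads were intronic in queens and 30.7% and 33.0% in workers. Within U2af50 the shares were 15.6% and 16.2% in queens and 20.1% and 26.1% in workers, from 136 and 131 intronic reads in queens and 99 and 114 in workers. For both genes the worker samples were above the queen samples. An edgeR interaction of intronic and exonic reads with caste, also chosen after the data were seen, tested 5 of the 17 genes and called none. Its unadjusted p was below 0.05 for snRNP70K and U2af50, and the share of all genes at that threshold was not computed. Over the 3218 genes tested it called 1.37% toward queens and 1.65% toward workers. The intronic change less the exonic change, queens over workers, was -0.66 on the log2 scale for U2af50 (SE 0.22, adjusted p = 0.166) and -0.41 for snRNP70K (SE 0.18, adjusted p = 0.336). Values of like size were found for SmD3 (-0.62, SE 0.32, adjusted p = 0.422) and SF3B3 (-0.41, SE 0.27, adjusted p = 0.527). For U2af38 it was -0.01 (SE 0.34, adjusted p = 0.997). Intronic reads of U2af50 may include reads of the genes it overlaps, which was not tested, whereas snRNP70K overlaps no gene of the table.

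**Figure D4:**
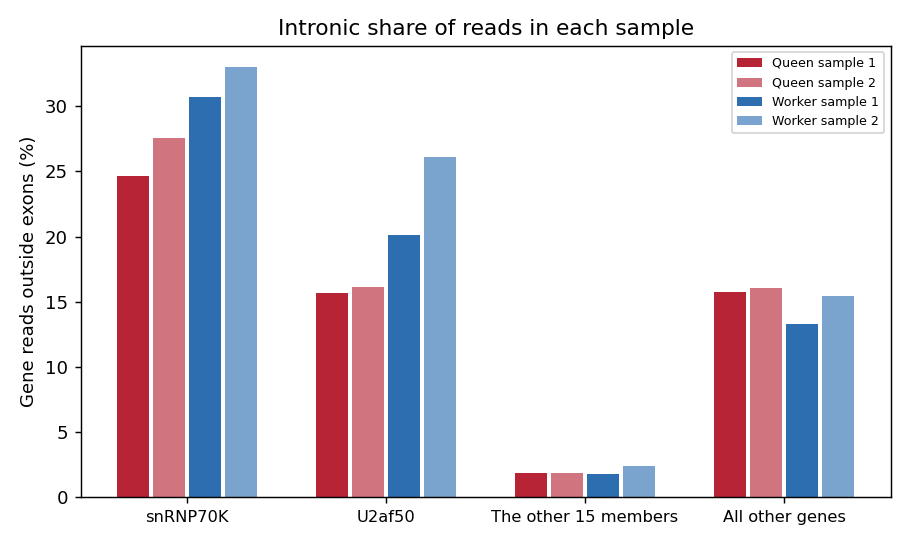
Share of gene reads that fall outside exons (%), as a bar for each of the 4 samples, in snRNP70K, in U2af50, summed over the other 15 genes and summed over all other genes of the table. The shares of snRNP70K (24.6% to 33.0%) and U2af50 (15.6% to 26.1%) are higher in both worker samples, and the summed share of the other 15 genes is at most 2.37%.

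Other genes of splicing were taken from the table by a list of symbols, which matched 14 genes. None was higher in queens by edgeR's test and 1 was higher in workers, beside 6.33% and 12% of all tested genes. DESeq2's Wald test gave the same counts, 0 and 1, and limma on log2(RPKM + 1), without TMM factors, called 11 higher in queens, as it did 42.1% of all genes it tested. At an unadjusted p below 0.05 by edgeR, AQR, Bcas2, DHX35, Snrpc and mago had higher values in queens, as did 14.9% of all tested genes. In workers 1 of the 14 was higher at this threshold, beside 19.2% of all tested genes. The fitted value was above 0 for 11 of the 14, beside 50.7% of all tested genes, and the median log2 fold change was 0.20 beside 0.01. The gene higher in workers was Rsf1, named as a fly SR-type splicing repressor, with 464 and 444 exon reads in queens and 470 and 470 in workers (log2 fold change -0.51, SE 0.10, edgeR adjusted p = 0.028). This call was lost with library totals, where its log2 fold change was 0.03 (adjusted p = 0.844).

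Snrpc, the U1 protein C, had 305 and 255 exon reads in queens and 148 and 126 in workers (log2 fold change 0.57, SE 0.15, edgeR adjusted p = 0.058). Bcas2, a partner of Prp19 in its complex, had 344 and 280 against 159 and 160 (log2 fold change 0.50, SE 0.14, adjusted p = 0.070). Both had queen reads far above worker reads, and neither passed the test. B52, an SR protein, was read most of the 14, with 5142 and 5089 exon reads in queens and 3413 and 3667 in workers (log2 fold change 0.07, SE 0.10, adjusted p = 0.687). The exon junction proteins mago and tsu, which mark joined exons, had log2 fold changes of 0.43 (SE 0.16, adjusted p = 0.132) and -0.02 (SE 0.19, adjusted p = 0.958).

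For comparison, none of the 60 cytosolic ribosomal protein genes and none of the 14 proteasome genes was called in either direction by edgeR with TMM factors. Over all tested genes 6.33% were called higher in queens and 12% higher in workers. At an unadjusted p below 0.05, 3 ribosomal genes were higher in workers and 1 proteasome gene in queens, beside 19.2% and 14.9% of all tested genes. The Wald test of DESeq2 called no ribosomal gene and 1 proteasome gene, higher in queens. It called 6.52% of the genes it tested higher in queens and 11.2% higher in workers. The median log2 fold changes were -0.13 for the ribosomal and 0.02 for the proteasome genes, beside 0.30 for the 17 chosen genes, THO subunits included. With library totals the medians were 0.41, 0.56 and 0.84, and edgeR called 43 ribosomal and 12 proteasome genes higher in queens, beside 47.3% of all tested genes.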

How the data were processed

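RNA was extracted from pools of whole larvae, and libraries were sequenced by standard Illumina methods. The authors used CLC Genomics Workbench (version not given in the sources used here) for mapping to Amel_4.5 and deposited read counts per gene for exons, exon-exon junctions and whole genes, with and without reads that match several places. The authors computed the deposited RPKM from exon reads, exon length and the reads on genes. Their scaled values, fold changes and Baggerly p-values, and a table of transcripts that passed their own test in queens, were not used.

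Exon counts of all genes were compared with edgeR 4.0.16 in R 4.3.3 (TMM factors, filterByExpr, quasi-likelihood test, Benjamini-Hochberg over all tested genes). The fit was tried on simulated samples that shared a mean profile apart from the genes made to differ. That trial could not test the scaling between libraries of unlike composition, such as those of the castes here. Standard errors were the fold change divided by the root of F. With 2 samples against 2, an exact permutation test cannot go below p = 0.333. Alternatives were other scalings, filters and thresholds, DESeq2 1.42.0, limma 3.58.1 on the log2 of RPKM plus 1 or 0.1, single-match reads, all gene reads, a replicate block and each sample left out, with junction reads, members with at least 80% single-match reads and the intron interaction added after the data were seen. Where a sample was left out, the lone sample of its caste is assumed to vary like the other caste. Replicates of a caste differed by more than sampling noise (chi-square per degree of freedom 21.9 in queens and 10.5 in workers).

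Every member is named, with full statistics for called members and those with the largest changes. The members, the further splicing genes and the comparison lists were chosen with earlier results of these data known, and descriptions of genes were not used to extend the lists. Members are identified by symbol only, positions are those of the deposited table, and no sequence is shown. Python 3.11.15, pandas 2.3.3 and matplotlib 3.10.9 made the tables and plots.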

Additional observations from a re-analysis of the deposited data

How the results depend on the processing

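The number of the 17 genes called higher in queens was 4 with TMM factors, 15 with library totals, 8 with library totals without the 10 most abundant genes, 16 and 13 with limma on log2(RPKM + 1) and log2(RPKM + 0.1) (beside 6.33%, 47.3%, 18.2%, 42.1% and 37.8% of all tested genes), 1 with an adjusted p below 0.01, 1 on junction reads and 0 to 1 when a sample was left out (Prp19 without either queen sample, none without either worker sample). On junction reads, 3.17% of all genes tested were called higher in queens. For an adjusted p below 0.01 the share of all tested genes was not computed. With a sample left out, fewer of the 17 genes and fewer genes over the whole table were called. The drop over the whole table was far larger without a worker sample than without a queen sample. At an adjusted p below 0.10, 6 genes were called higher in queens and 1, snRNP70K, higher in workers, beside 11.1% and 16.5% of all tested genes. Samples with the same number were different larvae and did not deviate together (r = -0.04 over 7833 genes, from a single pair of differences), and with the replicate number as a block 1 of the 17 genes, Prp19, was called (log2 fold change 0.87, edgeR adjusted p = 0.016). The adjusted p under the block was 0.053 for U2af50, 0.070 for SF3B3 and 0.064 for thoc6, and the block called 408 genes higher in queens and 822 higher in workers. The median of the 17 log2 fold changes stayed above 0, at 0.84 with library totals, 0.55 without the 10 most abundant genes, 0.77 and 0.84 with limma, 0.20 over the genes with at least 80% single-match reads and 0.26 to 0.34 with a sample left out. The intronic share of the 17 genes in queens was 5.83% on reads with a single match. As a median over the genes it was 2.26% in queens and 2.52% in workers, and single samples gave 6.43% to 7.36% and 10.03% to 12.0%. The log2 fold change of snRNP70K became 0.20 with library totals and 0.17 with both limma fits. It turned below 0 for U2af38 on single-match reads (-0.013), and on junction reads for SF3A3 (-0.071), SmD3 (-0.18) and SmG (-0.068). With a sample left out it ranged across 0 for U2af38 (-0.12 without worker sample 1 to 0.15), SmG (-0.072 without worker sample 1 to 0.28), PRP17 (-0.040 without queen sample 2 to 0.13) and thoc7 (-0.084 without worker sample 1 to 0.19), and was below 0 also for U2af38 without queen sample 1 (-0.017) and PRP17 without worker sample 1 (-0.034). None of these values passed the test, and the cause was not tested. Prp19 kept its direction in all 17 alternatives (0.81 to 1.41) and its call in 15.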

Other observations

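Of the 4 genes called higher in queens, thoc6 and Prp19 lie on the same scaffold, 78.0 kb apart from the end of thoc6 to the start of Prp19. The genes between or beside them that were tested, LOC408752, LOC410957, LOC408751 and LOC408749, had log2 fold changes of 0.32 (edgeR adjusted p = 0.096), 0.00 (adjusted p = 0.998), -0.47 (adjusted p = 0.055) and -0.58 (adjusted p = 0.099), and none was called. LOC408752 overlaps thoc6 and had 698 and 692 exon reads in queens and 415 and 395 in workers. Its part in the value of thoc6 was not tested beyond reads with a single match, on which thoc6 kept its call (0.70, edgeR adjusted p = 0.045). LOC408749 overlaps Prp19 and had 156 and 185 exon reads in queens and 208 and 163 in workers, with a fitted value opposite in sign to that of Prp19. SF3A1 likewise overlaps LOC409884, which was higher in workers (log2 fold change -1.14, adjusted p = 0.012), and SF3A3 overlaps grp, the fly name of a checkpoint kinase, which was higher in queens (log2 fold change 0.62, adjusted p = 0.017).

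The share of exon reads that cross a junction differed widely among the 17 genes. It was 42.2% to 58.0% in Smb, which has 3 exons, and 41.7% to 51.6% in SmG, a short gene of 4 exons. It was 3.21% to 5.07% in SF3A3, which has 2 exons, and 4.17% to 5.90% in Snf, which has 3. Summed over the 17 genes it was 19.0% and 17.8% in queens and 18.2% and 17.9% in workers.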
